A study of Mus musculus with 10 samples.

Results

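The genes described here are the sensors of the unfolded protein response and the proteins that act directly beside them. They are Ern1, Xbp1, Traf2 and Rtcb of the IRE1 arm, Atf6, Atf6b, Mbtps1, Mbtps2 and the related factor Creb3l2 of the ATF6 arm, and Eif2ak3 of the PERK arm. They were chosen by name, and all 10 were found by Entrez identifier among the 27179 genes of the deposited count table. RNA of whole lung was sequenced from 10 mice. The 5 Flox mice were homozygous for a floxed allele of Ern1, the gene of IRE1α, and had an unaltered Shh locus (Shh +/+ IRE1α fl/fl). The 5 EpithelialKO mice had the same floxed alleles and 1 copy of Cre at Shh (Shh Cre/+ IRE1α fl/fl), which is active in the epithelium of the lung from its development on. Both groups carried the floxed alleles, and only EpithelialKO carried Cre and an altered copy of Shh. An effect of Cre itself or of the altered Shh copy therefore cannot be told apart from that of the deletion. Age, sex and strain are not given in the labels used here.

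The endoplasmic reticulum folds secreted and membrane proteins, and lung epithelial cells that make surfactant or mucus depend on it heavily. When unfolded protein builds up, IRE1α cuts an intron out of Xbp1 mRNA and the ligase RTCB joins the ends, which yields an active transcription factor. ATF6 travels to the Golgi, where the site-1 and site-2 proteases, products of Mbtps1 and Mbtps2, release its transcription factor domain. PERK, the product of Eif2ak3, phosphorylates the translation initiation factor eIF2α, which slows protein synthesis and favours translation of ATF4.

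The cut that joins Ern1 to Xbp1 is shown because it sets what these counts can and cannot report. In the longest Xbp1 transcript (GENCODE M21, build GRCm38) a pair of CNGCAGC sites enclosed 26 bases in exon 4, on the forward strand of chromosome 11 from 5524279 to 5524304. The line below gives the coding sequence around it, 5′ to 3′ as DNA letters, with the excised intron in capitals.
Xbp1: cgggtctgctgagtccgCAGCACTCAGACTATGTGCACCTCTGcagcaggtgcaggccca
Translated from the annotated start, the transcript read through 267 codons with the intron and 371 without it, because the removal shifts the frame. The intron is 1.22% of the transcript's 2129 bases. A count over the whole gene is therefore nearly the same for the spliced and unspliced forms, and the Xbp1 values below hold no measure of IRE1α activity.

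Each mouse had between 14983829 and 21224412 counts. Lung markers were abundant: surfactant protein C (Sftpc) averaged 36037 CPM (counts relative to library size, after TMM scaling) and the club cell protein Scgb1a1 26875 CPM. Flox mice 4 and 6 had 3949 and 4866 counts of Xist, which marks the inactive X chromosome, and 0 counts over 4 Y-linked genes, while the other 8 mice had 2 to 61 and 2462 to 3575. All 8 AT2, all 6 club and all 6 ciliated cell markers had positive log2 fold changes of EpithelialKO over Flox, with medians of 0.25, 0.49 and 0.54. AT1 markers, also epithelial, were divided, 3 of 6 positive with a median of -0.01. All 6 endothelial, all 6 smooth muscle and 5 of 6 fibroblast markers had negative ones, with medians of -0.41, -0.48 and -0.52. All 5 adipose markers tested were positive (median 0.58), as were 4 of 6 macrophage (0.13), 3 of 6 plasma and B cell (-0.02) and 1 of 6 cardiac markers (-0.10). Summed levels in Flox and EpithelialKO were 50144 to 60492 and 60405 to 75085 CPM for AT2 and 2507 to 3375 and 1932 to 2574 CPM for endothelial markers. No marker passed the threshold used below and, except 1 adipose marker, none was at 0 in any mouse. At an unadjusted edgeR p under 0.05, 6 of 8 AT2, 3 of 6 club and 4 of 6 ciliated markers were higher in EpithelialKO. Lower were 6 of 6 endothelial, 5 of 6 fibroblast, 4 of 6 smooth muscle and 1 of 6 macrophage markers. The other marker lists had 0 in either direction. Over all genes the shares were 5.87% higher and 6.52% lower. Fold changes also ran with transcript length: the median was 0.09 over 2841 genes of up to 2 kb and -0.11 over 981 genes of 6 to 8 kb. The part of cell composition and of sex in the results below was not tested, and in whole lung fewer cells of a type and less RNA per cell cannot be told apart. Fits without Flox mice 4 and 6, given below, hold only mice with Y-linked counts, but also fewer Flox mice.

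Ern1, the deleted gene, is described first. Its level in the 5 Flox mice 2, 3, 4, 5 and 6 was 20.1, 19.8, 15.6, 8.05 and 20.5 CPM, and in the 5 EpithelialKO mice 17, 18, 20, 21 and 22 it was 12.3, 15.5, 10.7, 21.8 and 26.1 CPM. The groups overlapped almost entirely: the lowest value was that of a Flox mouse and the highest that of an EpithelialKO mouse. Ern1 lies on chromosome 11, 106397620 to 106487796. The floxed exons are not named in the labels, every exon adds to a gene's count, and cells outside the epithelium keep an intact gene. These counts therefore do not check the genotype, and EpithelialKO refers to the libraries so labelled. The edgeR 95% interval of the log2 fold change ran from -0.55 to 0.63, with an adjusted p of 0.975.

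**Figure D1:**
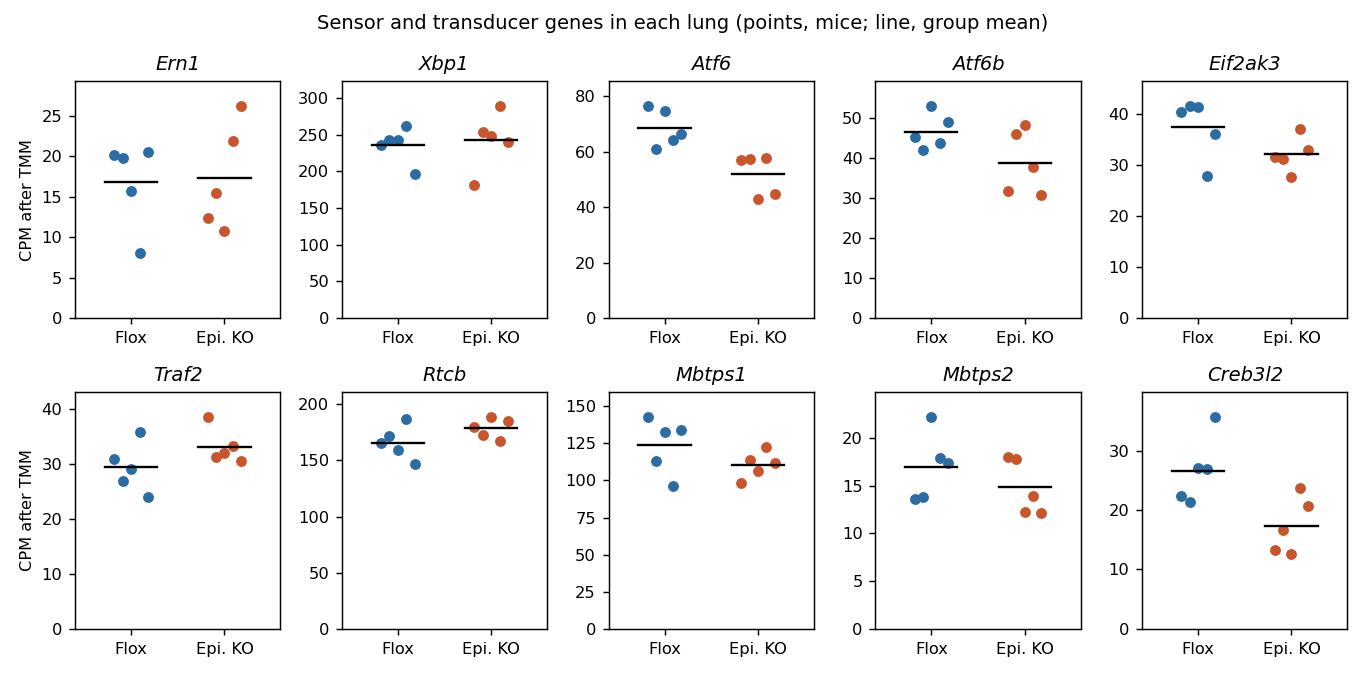
Level of each gene in CPM after TMM (vertical axes, from 0) in the 5 Flox mice (blue) and the 5 EpithelialKO mice (orange, Epi. KO), with points for mice and lines for group means. Of the 10 genes only Atf6 has groups that do not overlap, with Flox at 60.9 CPM or more and EpithelialKO at 57.8 CPM or less.

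Atf6, which encodes the membrane-bound transcription factor of the second arm, stood lower in every EpithelialKO mouse than in any Flox mouse. Flox mice 2, 3, 4, 5 and 6 had 76.3, 60.9, 74.6, 64.2 and 66.5 CPM, and EpithelialKO mice 17, 18, 20, 21 and 22 had 57.1, 57.3, 43.1, 57.8 and 44.8 CPM. The gap between the groups, from 57.8 to 60.9 CPM, was small beside the spread within each. Non-overlap with lower values in EpithelialKO was found for 1.48% of all 15301 genes tested, and for 1 of the 10 genes here. The log2 fold change was -0.40 ± 0.11 (SE), with an edgeR adjusted p of 0.162, so Atf6 did not pass the threshold of 0.05. Atf6 (chromosome 1, 170704457 to 170868585) has a long transcript of 7.25 kb. With an offset for transcript length in each mouse its log2 fold change was -0.28 ± 0.10 (SE, edgeR adjusted p = 0.28) and the groups overlapped.

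Atf6b, the paralog of Atf6 with weaker transcriptional activity, had 42.1 to 53.0 CPM in Flox and 30.7 to 48.3 CPM in EpithelialKO. In EpithelialKO mice 18 and 20 it lay within the Flox range, and in mice 17, 21 and 22 below it. Its log2 fold change was -0.26 ± 0.13 (SE, edgeR adjusted p = 0.436), and -0.29 ± 0.13 with the length offset on a transcript of 2.57 kb. The gene lies on chromosome 17, 34647146 to 34655074.

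Creb3l2, a membrane-bound factor cut by the same proteases and known for the secretory load of matrix-producing cells, had the most negative fold change of the 10. Flox mice 2, 3, 4, 5 and 6 had 22.4, 21.3, 27.0, 26.8 and 35.6 CPM. EpithelialKO mice 17, 18, 20, 21 and 22 had 13.2, 16.6, 12.7, 23.6 and 20.6 CPM. The groups overlapped through 1 EpithelialKO mouse, number 21, which lay above Flox mice 2 and 3. The log2 fold change was -0.62 ± 0.19 (SE), with an edgeR adjusted p of 0.184 and thus not past the threshold. It was -0.51 ± 0.17 (SE, edgeR adjusted p = 0.24) with the length offset and -0.44 without Flox mice 4 and 6. Creb3l2 (chromosome 6, 37327255 to 37442276) has a transcript of 7.08 kb. Beside it stands the fibroblast marker median of -0.52, whose summed level was 746 to 1064 CPM in Flox and 627 to 690 CPM in EpithelialKO; its part in the result was not tested.

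The proteases had smaller differences than their substrates, and their groups overlapped. Mbtps1, the site-1 protease (chromosome 8, 119508151 to 119558864), averaged 124 ± 18.9 CPM in Flox and 111 ± 8.87 CPM in EpithelialKO (SD, n = 5 each). Its log2 fold change was -0.16 ± 0.11 (SE). Mbtps2, the site-2 protease (X chromosome, 157547822 to 157598715), averaged 17.0 ± 3.50 and 14.8 ± 2.90 CPM (SD, n = 5 each), with -0.19 ± 0.17 (SE) as log2 fold change. Flox mouse 4, at 22.2 CPM, was the highest of all mice, and without Flox mice 4 and 6 the log2 fold change was -0.02. Exons of Mbtps2 share 2867 bases with Yy2 on the same strand, so the counts of Mbtps2 are uncertain.

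Eif2ak3, the gene of the sensor kinase PERK (chromosome 6, 70844484 to 70905241), had a lower mean in EpithelialKO and overlapping groups. Flox mice 2, 3, 4, 5 and 6 had 40.3, 41.4, 41.3, 27.9 and 36.0 CPM, and EpithelialKO mice 17, 18, 20, 21 and 22 had 31.6, 31.2, 27.7, 37.0 and 32.9 CPM. Flox mouse 5, the mouse with the fewest counts, lay within the EpithelialKO range. The fold change of Eif2ak3 on the log2 scale was -0.22 ± 0.13 (SE, edgeR adjusted p = 0.501). It was -0.31 without Flox mouse 5 and -0.17 ± 0.12 (SE, edgeR adjusted p = 0.627) with the length offset. Over the 19 alternatives it ran from -0.31 to -0.17.

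Of the IRE1 arm beyond its sensor, Xbp1 was the most abundant gene and did not separate the groups. It lay at 236, 243, 242, 262 and 197 CPM in Flox mice 2, 3, 4, 5 and 6, and at 181, 254, 247, 288 and 239 CPM in EpithelialKO mice 17, 18, 20, 21 and 22. Both extremes were EpithelialKO mice, number 17 the lowest and number 21 the highest. Its log2 fold change had a 95% interval from -0.21 to 0.28 in edgeR, narrower than that of Ern1. Xbp1 lies on chromosome 11, 5520641 to 5525993.

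Rtcb, the ligase that joins cut Xbp1 mRNA and also the cut pieces of tRNA, varied least among the 10. It averaged 166 ± 14.9 CPM in Flox and 179 ± 8.77 CPM in EpithelialKO (SD, n = 5 each), with a log2 fold change of 0.11 ± 0.09 (SE). Traf2, the adaptor through which IRE1α engages the JNK kinase cascade, averaged 29.4 ± 4.44 and 33.2 ± 3.17 CPM (SD, n = 5 each), with a log2 fold change of 0.17 ± 0.12 (SE). The groups overlapped in both genes. Rtcb lies on chromosome 10, 85938637 to 85957793, and Traf2 on chromosome 2, 25517982 to 25546940.

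None of the 10 genes passed the threshold of 0.05 on the edgeR quasi-likelihood adjusted p (lowest 0.162), against 0.0392% of all genes tested. At an unadjusted p under 0.05 there were 2, Atf6 and Creb3l2, both lower, against 6.52% of all genes in that direction. In the other direction there were 0, against 5.87%, and 0 genes stood higher in EpithelialKO without overlap, against 1.63%. By DESeq2 and by limma-voom 0 of the 10 passed after adjustment. The shares that passed were 2.21% of the 12627 genes given an adjusted p by DESeq2 and 0.209% of 15301 genes in limma-voom. In these 2 fits 2 and 4 of the 10 had an unadjusted p under 0.05, against 2019 and 2419 of 15301 genes. The median log2 fold change of the 10 was -0.18, against 0.00 over all genes, and 6 of the 10 were negative, against 49.9%. Without Flox mice 4 and 6 most of these 10 fold changes were smaller in size, while that of Ern1 was larger (0.11). All 5 genes of the ATF6 arm had negative fold changes, and of the 4 genes of the IRE1 arm all were positive, although the signs of Ern1 and Xbp1 turned under other settings. Over 981 genes of the length class of Atf6, Creb3l2 and Ern1, 6 to 8 kb, 71.7% were negative. The difference in median level between genes over 6 kb and genes up to 2 kb, each as a log2 deviation from its mean, ran from -0.04 to 0.25 in Flox mice and from -0.27 to 0.07 in EpithelialKO mice.

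**Figure D2:**
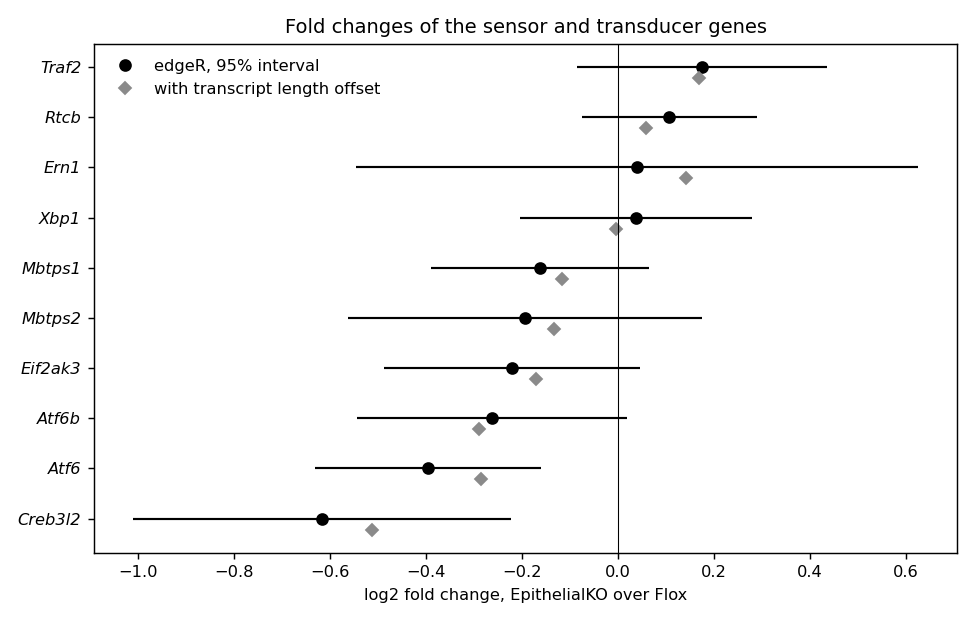
Log2 fold change of EpithelialKO over Flox (horizontal axis) of the 10 genes, ordered from highest to lowest, with the edgeR estimate and 95% interval in black and the estimate with a transcript length offset as grey diamonds. Only the intervals of Atf6 and Creb3l2, which carry no adjustment for the number of genes, lie below 0, and the offset moves Atf6 from -0.40 to -0.28.

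Levels of different genes were compared per kb of the longest annotated transcript, as CPM per kb over all 10 mice. Xbp1 stood highest at 112 ± 14.4 CPM per kb (SD, n = 10), followed by Rtcb at 85.7 ± 6.65. Mbtps1 followed at 27.0 ± 3.59, Atf6b at 16.7 ± 2.86, Traf2 at 10.3 ± 1.36, Atf6 at 8.32 ± 1.51 and Eif2ak3 at 7.70 ± 1.16 CPM per kb. The lowest were Mbtps2 at 3.31 ± 0.67, Creb3l2 at 3.10 ± 0.98 and Ern1 at 2.46 ± 0.81 CPM per kb. Between Rtcb, Mbtps1 and Atf6b, and between Eif2ak3 and Mbtps2, the ranges of neighbours over the 10 mice did not overlap. The ranges of the neighbours Traf2, Atf6 and Eif2ak3 overlapped over all 10 mice. Traf2 was above Atf6 in 7 of 10 mice and Atf6 above Eif2ak3 in 6 of 10. Within EpithelialKO, however, Traf2 and Atf6 did not overlap, with Traf2 at 10.1 CPM per kb or more and Atf6 at 7.98 or less, while in Flox they overlapped. The ranges of Mbtps2 and Creb3l2 overlapped too, with Mbtps2 higher in 4 of 10. The lowest places differed by group: Creb3l2 averaged above Mbtps2 in Flox (3.76 and 3.54 CPM per kb), and Ern1 above Creb3l2 in EpithelialKO (2.49 and 2.45). Ern1 was below Creb3l2 in 9 of 10 mice, and Rtcb below Xbp1 in 9 of 10. With exon union lengths, Mbtps2 stood at 2.00 and Ern1 at 2.09 CPM per kb, so the lowest place depends on the gene model.

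The low level of Ern1 RNA beside that of Xbp1 was the widest contrast within an arm. It compares RNA over all cells of the lung and gives no amount of IRE1α protein. Xbp1 was 31.4 to 106 times Ern1 per kb in Flox mice and 29.9 to 75.2 times in EpithelialKO mice. Among the sensor genes Ern1 took the smallest share of summed CPM per kb in all 10 mice. Its share was 11.8% ± 3.07 in Flox and 14.6% ± 4.57 in EpithelialKO (SD, n = 5 each). Atf6 had 47.2% ± 4.88 and 42.9% ± 4.57, and Eif2ak3 had 41.0% ± 2.64 and 42.5% ± 1.61. The share of Ern1 ran from 7.16% in Flox mouse 5 to 21.8% in EpithelialKO mouse 22. That of Atf6 ran over more percentage points, from 35.9% to 54.7%, and that of Eif2ak3 over the fewest, from 38.2% to 45.0%. The summed level of the 3 sensors was 20.2 ± 2.40 CPM per kb in Flox and 16.8 ± 2.04 in EpithelialKO (SD, n = 5 each).

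**Figure D3:**
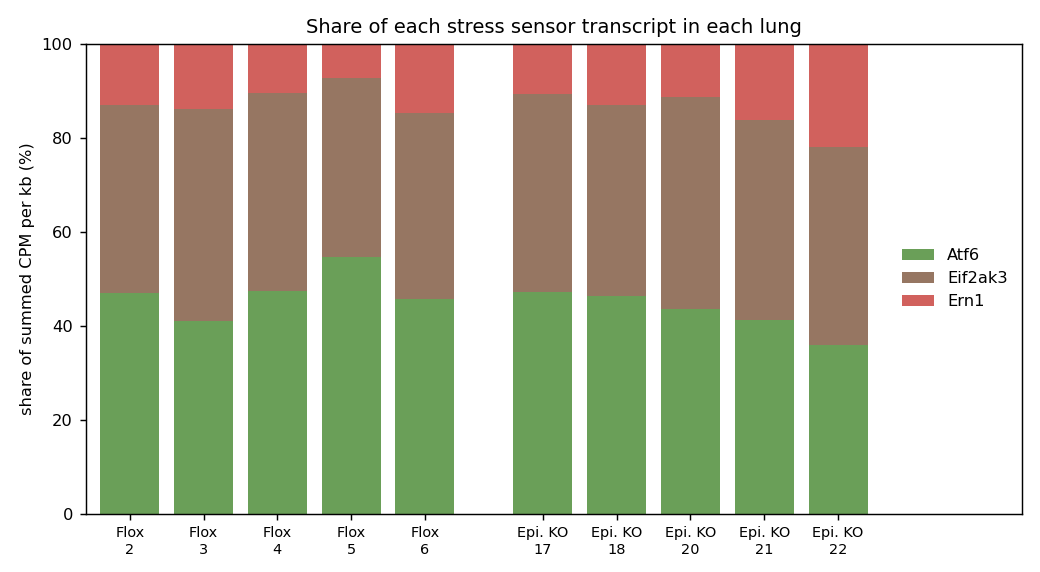
Share of Atf6, Eif2ak3 and Ern1 in their summed CPM per kb (vertical axis, percent) in each mouse, named by group and number. Ern1 is the smallest share in every mouse, from 7.16% in Flox mouse 5 to 21.8% in EpithelialKO mouse 22, and Atf6 ranges from 35.9% to 54.7%.

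Ratios between genes of one library need no scaling between libraries, so 8 of them were compared between groups. The trend with transcript length given above does not cancel where the 2 genes differ in length, as Xbp1 (2.13 kb) and Ern1 (6.95 kb) do. No length offset was applied to the ratios. With 252 ways to assign the mice, the exact permutation test (two-sided) can reach a p of 0.00794, and no ratio passed 0.05. By group means over all mice the widest difference was that of Ern1 to Atf6, whose log2 count ratio was -2.10 ± 0.56 in Flox and -1.66 ± 0.57 in EpithelialKO (SD, n = 5 each). Its difference of 0.44 ± 0.36 (SE) had an exact permutation p of 0.286, and 0.698 after adjustment over the 8 ratios, with 4 of 5 EpithelialKO mice above the Flox mean. That difference was 0.22 without Flox mouse 5 or without EpithelialKO mouse 22, and 0.03 between medians. Ern1 to Eif2ak3 differed by 0.25 ± 0.26 (SE, exact permutation p = 0.349), and by 0.06 between medians. Between medians, and without Flox mouse 5, Rtcb to Ern1 was the widest, at 0.36 in each case. Atf6 to Eif2ak3 differed by -0.19 ± 0.13 (SE, exact permutation p = 0.214), with all 5 EpithelialKO mice below the Flox mean and overlapping ranges. Per kb, Atf6 was 0.915 to 1.43 times Eif2ak3 in Flox and 0.849 to 1.14 times in EpithelialKO, and neither gene was the higher one in all mice.

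Within arms, Xbp1 to Ern1 differed by -0.01 ± 0.37 and Rtcb to Ern1 by 0.07 ± 0.40 (SE), and their spread followed that of Ern1. Atf6 to Atf6b differed by -0.12 ± 0.18 (SE). Its SD was 0.12 in Flox and 0.38 in EpithelialKO, where mouse 17 had 0.637 and mouse 20 had 0.316 times as much Atf6 as Atf6b per kb. Mbtps1 to Mbtps2 differed by 0.04 ± 0.23 and Creb3l2 to Atf6 by -0.23 ± 0.23 (SE). Adjusted over the 8 ratios, the exact permutation p was 0.698 or higher for each.

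**Figure D4:**
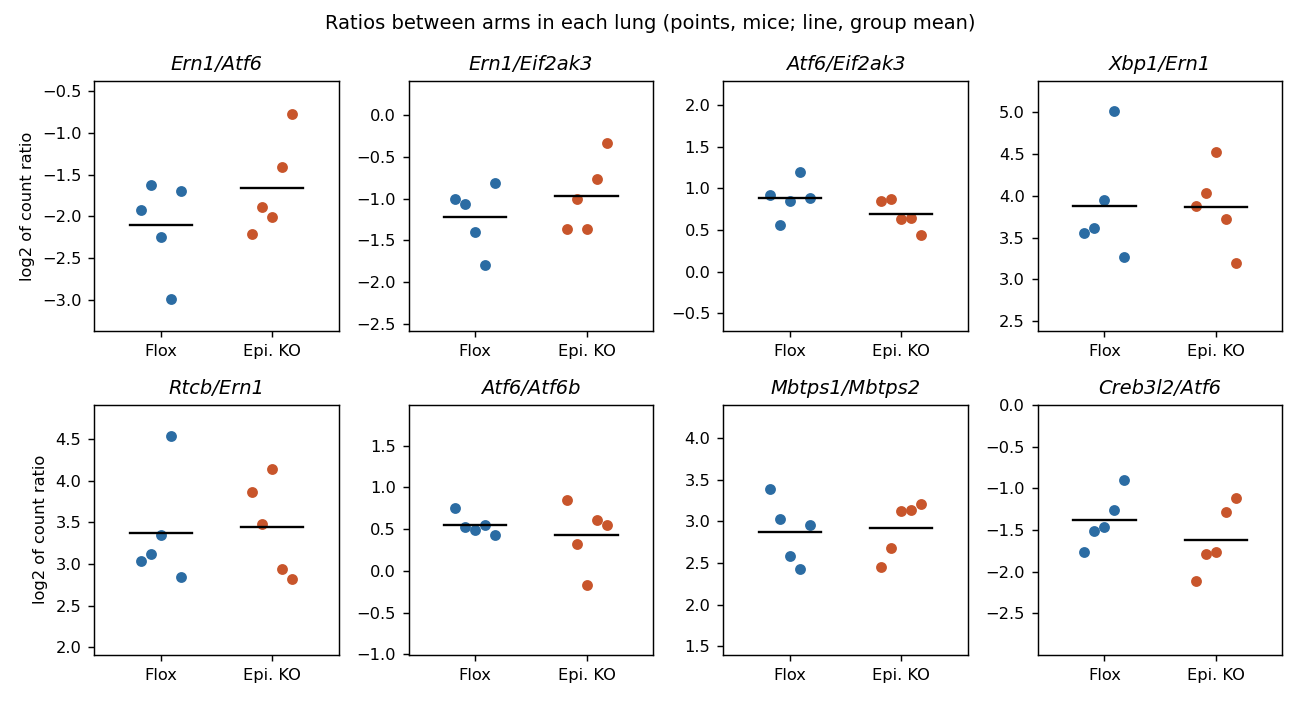
Log2 ratio of the counts of 2 genes (vertical axes, each spanning the same number of log2 units) in the 5 Flox mice (blue) and the 5 EpithelialKO mice (orange, Epi. KO), with points for mice and lines for group means. The groups overlap in all 8 ratios, and Flox mouse 5 sets an extreme in the 4 ratios that hold Ern1.

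Ern1 was also the gene that varied most between mice of one group. Its coefficient of variation was 31.4% in Flox and 37.7% in EpithelialKO, while counting error at its lowest count of 121 is 9.09%. The within-group SD of its log2 CPM was 0.55, higher than in 96.4% of the 4793 genes whose mean lay within a factor of 2 of its own. The median SD of those genes was 0.25. Creb3l2 came next, with an SD of 0.34, higher than in 83.9% of genes of like level. The other 8 genes lay between the percentiles 16.5 (Rtcb) and 71.5 (Xbp1). Within EpithelialKO alone Ern1 spanned 2.44-fold and Rtcb 1.13-fold. With the length offset the within-group SD of Ern1 was 0.51.

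The genes whose levels ran most like Ern1 over the 10 mice, after removing group means, were Ntn4, Kif1c, Akap2, Clip1 and Scaf11. They were picked from 11605 genes, so their Pearson r of 0.97 to 0.99 is a description with no test. Kif1c, Akap2, Clip1 and Scaf11 have long transcripts of 6.68, 7.23, 6.13 and 5.77 kb, as Ern1 does (6.95 kb), and Ntn4 has 3.65 kb. No length offset was applied in this search, and the part of transcript length was not tested. Ntn4, a netrin of basement membranes, had its lowest Flox value, 65.5 CPM, in mouse 5 and its highest EpithelialKO value, 105 CPM, in mouse 22, as Ern1 did. For Atf6 the closest were Trf, Srpr, Megf6, Sgpp2 and Man2a1, with r from 0.88 to 0.91. Srpr encodes a subunit of the receptor for the signal recognition particle and Man2a1 a Golgi mannosidase. For Xbp1 they were Cct4, Dnajb9, Txndc11, Rin3 and Banp, with r from 0.92 to 0.98. Their Spearman rho was 0.67, 0.87, 0.62, 0.92 and 0.82 in that order. In each of them, as in Xbp1, EpithelialKO mouse 17 had the lowest value of its group. The lists for Atf6 and Xbp1 came from the same search and likewise carry no test.

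Dnajb9, an endoplasmic reticulum co-chaperone known as a target of XBP1 that also represses IRE1α, had the second highest r with Xbp1 (0.94, Spearman rho 0.87, n = 10). Its level was lowest in EpithelialKO mouse 17 (38.1 CPM), where Xbp1 was lowest too. In each group the mouse with the highest Xbp1, Flox mouse 5 and EpithelialKO mouse 21, also had the highest Dnajb9, at 81.3 and 66.2 CPM. Dnajb9 was picked from 11605 genes for running like Xbp1 in these same mice. Its match at single mice follows from that choice and is no test of the known link. Between groups, the log2 fold change was -0.35 ± 0.13 for Dnajb9 (SE, edgeR adjusted p = 0.289) and 0.04 for Xbp1.

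Among the 10 genes themselves, no pair of 45 was related after adjustment by exact permutation within groups (lowest adjusted p 0.42). An unadjusted p under 0.05 was found for 3 pairs. Rtcb with Mbtps1 had an r of -0.77 (exact permutation p = 0.028, Spearman rho -0.78 with exact permutation p = 0.0219). It was -0.60 without the 2 mice farthest from the median of Rtcb. Ern1 with Mbtps1 had 0.73 (exact permutation p = 0.0238), and 0.44 without the 2 mice farthest from the median of Ern1. The highest r was that of Ern1 with Eif2ak3, 0.81 (exact permutation p = 0.0212, Spearman rho 0.61 with exact permutation p = 0.0795, n = 10). It was 0.32 without the 2 mice farthest from the median of Ern1. Leaving out the extremes of Ern1 narrows its range, which tends to lower r by itself. The lower value therefore does not settle whether r rests on those mice.

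The other genes of the pathway were taken from 4 lists. Of 86 genes tested in all, 0 passed the edgeR adjusted p threshold, 15 had an unadjusted p under 0.05, and 8 had groups that did not overlap, 5 higher and 3 lower in EpithelialKO. The shares over all genes were 12.4% and 3.12%. For the IRE1 partners and tRNA ligase complex, the median log2 fold change was 0.08 over 23 genes, 7 of them negative. Sec61a1, the channel of the translocon with which IRE1α associates, averaged 175 ± 11.4 CPM in Flox and 147 ± 8.66 CPM in EpithelialKO (SD, n = 5 each). Its log2 fold change was -0.25 ± 0.08 (SE), and the groups did not overlap. Rtraf, a subunit of the RTCB ligase complex, had 0.30 ± 0.10 and the ubiquitin ligase gene Syvn1 -0.42 ± 0.15. Rack1 had 0.19 ± 0.10. Ern2, the paralog IRE1β of mucous cells, was not tested, with 5 counts in all Flox mice together and 0 in EpithelialKO.

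Genes of ATF6 processing and the related membrane factors had a median of -0.02 over 19 genes, 11 of them negative. Pdia5, a disulfide isomerase described as an activator of ATF6, averaged 17.0 ± 1.24 CPM in Flox and 12.4 ± 2.60 CPM in EpithelialKO (SD, n = 5 each). Its log2 fold change was -0.45 ± 0.16 (SE, edgeR adjusted p = 0.257) and its groups did not overlap. Nucb1, a Golgi calcium-binding protein, had -0.23 ± 0.10, Creb3l1, a relative of Creb3l2, had 0.26 ± 0.15, and Wfs1, a membrane protein of the endoplasmic reticulum, had -0.30 ± 0.17. Creb3l1 and Creb3l2 thus had opposite signs, and their difference was not tested. Creb3l3 was not tested, with 24 counts in Flox and 18 in EpithelialKO.

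On the PERK side, 15 of 24 genes of the eIF2 kinases, eIF2, eIF2B and the phosphatase were positive, with a median of 0.10. Eif2s2, the beta subunit of eIF2, averaged 100 ± 6.54 CPM in Flox and 125 ± 10.7 CPM in EpithelialKO (SD, n = 5 each). The fold change on the log2 scale was 0.31 ± 0.09 (SE, edgeR adjusted p = 0.158). Eif2b5, the catalytic subunit of the exchange factor eIF2B, had 0.27 ± 0.09, and in both genes the groups did not overlap. Ddit3, which encodes the stress factor CHOP, had 0.40 ± 0.13, and Eif2s1, the subunit that PERK phosphorylates, had 0.20 ± 0.10. Atf4 itself had 131 ± 38.3 and 142 ± 13.5 CPM (SD, n = 5 each); its output is set mainly in translation, which counts of RNA do not show.

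Reporter genes of the 3 arms were split evenly, 10 of 20 negative, with a median of 0.01. Psat1, a serine synthesis enzyme induced by ATF4, had 12.9 to 17.3 CPM in Flox and 23.6 to 26.8 CPM in EpithelialKO. Its log2 fold change was 0.67 ± 0.13 (SE, edgeR adjusted p = 0.0577). The asparagine synthetase gene Asns had 17.5 to 30.4 and 32.2 to 40.6 CPM, with a log2 difference of 0.69 ± 0.15 (SE, edgeR adjusted p = 0.0859). In both genes the groups did not overlap, and in some other settings both passed the threshold. Those settings called 32 to 279 of all genes, against 6 in the main fit. The lipoprotein receptor gene Vldlr had 0.36 ± 0.10, and Edem1, of the degradation pathway, had -0.31 ± 0.10. None of these passed in edgeR.

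**Figure D5:**
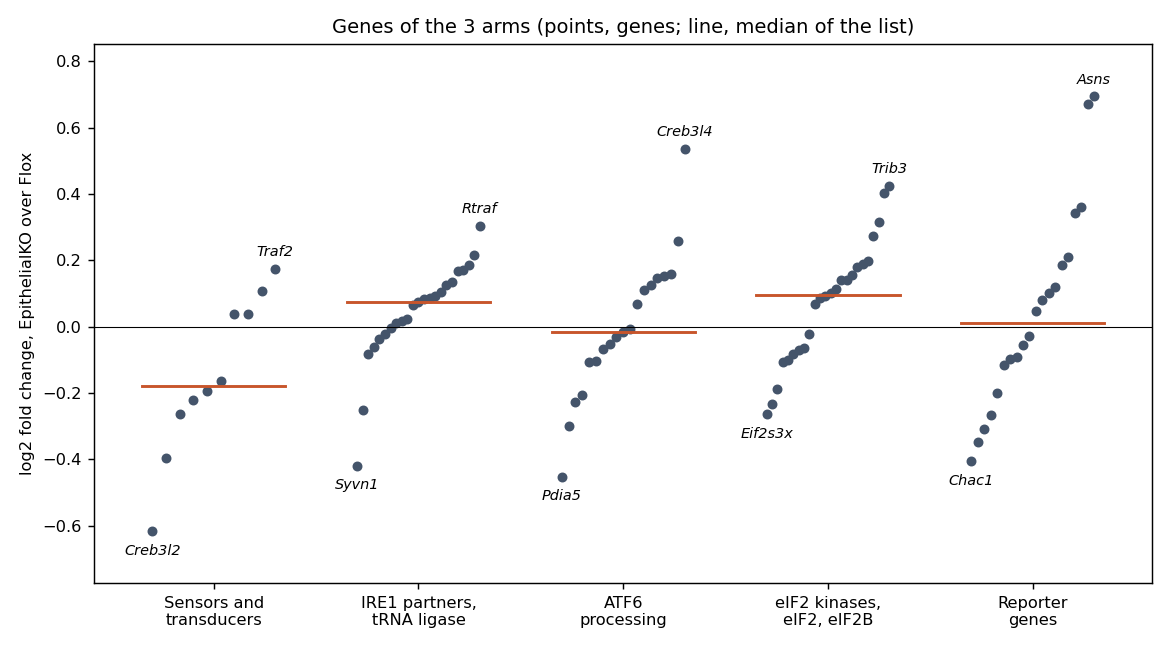
Log2 fold change of EpithelialKO over Flox (vertical axis) of each gene of the sensors and transducers and of 4 lists of pathway genes, with points for genes, lines for list medians, and the most negative and most positive gene named. The sensors and transducers have the lowest median, -0.18, and the other medians lie between -0.02 and 0.10.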

How the data were processed

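Each column of the deposited table holds raw counts of 1 mouse over Entrez genes: whole numbers with differing totals. The submitters' processing notes name cutadapt, HISAT2 and the build GRCm38. No source used here gives their versions, the counting tool, its annotation or its strand setting, so overlapping genes may share reads. Symbols came from RefSeq (25275 genes) and transcript lengths from GENCODE M21.

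Genes passing filterByExpr (15301) entered the quasi-likelihood test of edgeR 4.0.16 with TMM scaling (robust, group only) in R 4.3.3, adjusted by Benjamini-Hochberg at 0.05. SEs were derived from the F statistic. Each mouse was 1 sample and nothing pairs the mice. Ratios used exact permutation tests. On simulated counts for this comparison (15301 genes), 32.8% of genes changed 1.5-fold and 62.5% of those changed 2-fold were recovered.

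The genes, lists, ratios and tests were chosen with earlier results of these data known. The rule for named genes took all 10 genes, 4 genes of lowest p per pathway list and the 5 genes most correlated with Ern1, Xbp1 and Atf6 at a mean of at least 5 CPM. Atf4, Ern2 and Creb3l3 were named outside it, after their values were seen. Alternatives were other scalings, DESeq2 1.42.0, limma-voom (limma 3.58.1), count filters, 1 surrogate variable (sva 3.50.0), leaving out mice and, chosen after seeing the data, an offset per mouse on transcript length, available for 93.5% of genes.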

Additional observations from a re-analysis of the deposited data

How the results depend on the processing

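None of the 10 genes passed the threshold in any of the 19 alternatives, and the direction of the 8 genes other than Ern1 and Xbp1 held in all of them, while sizes moved. Without Flox mice 4 and 6 the log2 fold change was 0.03 for Rtcb, 0.09 for Traf2, -0.08 for Mbtps1, -0.17 for Atf6b and -0.02 for Mbtps2. Without Flox mouse 6 alone it was 0.07 for Rtcb and 0.11 for Traf2, without EpithelialKO mouse 17 0.12 for Traf2, without Flox mouse 2 -0.11 for Mbtps1, and without Flox mouse 4 -0.08 for Mbtps2. The adjusted p of Atf6 ranged from 0.0531 (DESeq2) to 0.553 (without Flox mice 4 and 6) and that of Creb3l2 from 0.0605 to 0.658, under the same settings. The count at an unadjusted p under 0.05 was 4 in limma-voom, 1 without Flox mice 4 and 6 and 5 without Flox mouse 5, against 2. Over all genes it was 2419 of 15301, 1207 of 15722 and 2408 of 15496 under these settings, against 1896 of 15301. Ern1 had a log2 fold change of -0.11 in limma-voom and, leaving out 1 mouse, -0.16 to 0.17. Xbp1 had -0.027 without Flox mice 4 and 6, 0.00 (-0.0037) with the length offset and, leaving out 1 mouse, -0.0339 to 0.12. Of the pathway genes, 3 passed in DESeq2 (Eif2s2, Asns and Psat1). Asns and Psat1 passed in limma-voom, without a count filter and with 1 surrogate variable. Leaving out 1 mouse gave 0 to 2, with 2 only without Flox mouse 5. Of all genes, 279 passed in DESeq2, 32 in limma-voom, 34 without a count filter and 75 with 1 surrogate variable. Without Flox mouse 5 it was 48, against 6 in the main fit. The cause of these shifts was not tested.

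Of the ratios, none passed under any alternative, and the length offset was not among the alternatives run for them. The difference of medians was 0.26 for Xbp1 to Ern1 and 0.0154 for Atf6 to Atf6b, opposite in sign to the means. It was 0.0343 for Ern1 to Atf6, 0.057 for Ern1 to Eif2ak3 and 0.36 for Rtcb to Ern1, against 0.44, 0.25 and 0.07 between means. Without Flox mice 4 and 6, where the smallest possible p is 0.0179, Rtcb to Ern1 had -0.12 and Mbtps1 to Mbtps2 -0.0322. Leaving out 1 mouse gave 0.22 to 0.58 for Ern1 to Atf6, 0.09 to 0.35 for Ern1 to Eif2ak3, -0.17 to 0.27 for Xbp1 to Ern1, -0.10 to 0.36 for Rtcb to Ern1, -0.22 to 0.0279 for Atf6 to Atf6b and -0.071 to 0.17 for Mbtps1 to Mbtps2. No paired analysis was possible because the groups share no mouse numbers. With 5 mice a group, the width of the interval of Ern1 limits what can be said of its change.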
